A study of Mus musculus with 8 samples.

Results

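The 34 genes described here belong to the ATF4 response and to amino acid supply. They were fixed by name and found in the deposited table by Entrez identifier. All 34 were present among 27179 identifiers, and all 34 passed the filter on low counts, which left 13498 genes for the tests. The genes encode 9 stress transcription factors and regulators, 4 growth-related and secreted stress targets, 7 enzymes of serine synthesis and folate metabolism, 7 enzymes of asparagine, proline and transamination, and 7 amino acid transporters.

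RNA was sequenced from 8 cultures of proliferating neural stem and progenitor cells (NSPCs), grown as neurospheres from single C57BL/6 mouse fetuses at stage E14.5. Neurospheres are floating clusters of dividing neural precursors kept in proliferation medium. In 4 cultures Kat7, the gene of a MYST family histone acetyltransferase, had been deleted (Kat7lox/loxNesCreT/+), and 4 cultures were Kat7 intact (Kat7+/+NesCreT/+). Both genotypes carried the Cre transgene, whose Nestin sequences drive expression in neural precursors. The design asks how gene expression differs when Kat7 is missing.

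ATF4 is a transcription factor made chiefly by regulated translation. When amino acids run short or the endoplasmic reticulum is stressed, kinases phosphorylate the initiation factor eIF2, general protein synthesis drops and translation of the Atf4 mRNA increases. ATF4 then pairs with C/EBP family proteins at composite C/EBP-ATF response elements and activates genes for amino acid synthesis, uptake and transfer RNA charging, together with feedback regulators and cell death genes. In the developing brain the serine pathway matters in particular, since serine and its folate-linked carbon units feed nucleotide, lipid and glutathione synthesis in dividing precursors.

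Upstream sequences were available from RefSeq (GRCm38.p6) for 30 of the 34 genes. The 250 bases before each annotated start were searched on both strands for TGATGNAA, a short form of the C/EBP-ATF response element. A match was found for 6 of the 30 genes, or 20%, beside 2.37% of the 10293 tested genes with such a sequence. Counted by window, it was found in 6 of 38 member windows, beside 3.45% of all 32851 listed upstream windows. The members were chosen for their known roles in this response, so these shares describe the list. The 6 sequences are shown because they include Asns and Nupr1, a pair of genes that moved in opposite directions below. Each is printed 5′ to 3′ along the gene's own strand, with up to 30 flanking bases and none from after the start, and the capitals mark the match.
Asns: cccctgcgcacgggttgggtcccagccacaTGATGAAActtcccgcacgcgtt
Nupr1: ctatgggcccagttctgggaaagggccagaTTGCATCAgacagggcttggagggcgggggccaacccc
Atf3: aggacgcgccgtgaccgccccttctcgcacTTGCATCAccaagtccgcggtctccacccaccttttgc
Vldlr: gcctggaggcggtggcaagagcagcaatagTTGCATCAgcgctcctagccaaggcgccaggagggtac
Got1: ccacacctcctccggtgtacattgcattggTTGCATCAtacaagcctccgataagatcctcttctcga
Pycr1: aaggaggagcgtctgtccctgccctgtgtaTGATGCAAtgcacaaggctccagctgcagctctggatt

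These stretches lie at chr6:7693210-7693262 (Asns, minus strand), chr7:126625543-126625610 (Nupr1, minus), chr1:191183406-191183473 (Atf3, minus), chr19:27216790-27216857 (Vldlr, plus), chr19:43524670-43524737 (Got1, minus) and chr11:120643814-120643881 (Pycr1, minus). The Vldlr stretch precedes a second annotated start and lies within the gene's full span, while the other 5 precede the outermost start. The match reads along the gene in Asns and Pycr1 and on the opposite strand in the other 4. It begins 23 bases before the start in Asns, 110 in Nupr1 and Atf3, 200 in Vldlr, 102 in Got1 and 103 in Pycr1. A match is a run of letters, and binding was not measured here.

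Library totals ran from 10687817 to 18280518 counts in deleted and from 13403953 to 22444359 in intact cultures. Each genotype came from 3 litters, with 6 litters in all and no litter shared by the genotypes, so no comparison within a litter could be made. A single litter gave intact replicates 1 and 2, another gave deleted replicates 3 and 4, and the tests count each fetus as independent. Kat7 itself stood at 26.4, 0.367, 13.9 and 0.0870 CPM (the read count normalised to a library size scaled by TMM) in deleted replicates 1 to 4, against 77.1 to 92.1 CPM in intact cultures. Deleted replicates 1 and 3 thus kept 31.4% and 16.5% of the intact mean. The genotypes did not overlap (exact two-sided permutation p = 0.0286, the smallest that 70 arrangements allow), but the spread among deleted cultures left an edgeR adjusted p of 0.128 for a log2 fold change of -3.02 ± 1.10. Mitochondrial transcripts took 29.9% and 34.4% of the counts in deleted replicates 1 and 4, 18.95% and 17.1% in deleted replicates 2 and 3, and 18.95% to 23.5% in intact cultures. Summed levels of 10 neural stem and progenitor markers were 3606 to 5799 CPM in deleted and 5091 to 6142 CPM in intact cultures, with 0 of 10 called by edgeR, 0 by DESeq2 and 0 under an unadjusted p of 0.05. The microglial markers C1qa and C1qb had 0 counts in every library.

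Few of the 34 genes differed between the genotypes. At an adjusted p under 0.05 (edgeR's quasi-likelihood test with Benjamini-Hochberg adjustment over all genes), 2 were higher in Kat7 deleted cultures, Nupr1 and Cebpb, and 2 were lower, Asns and Bcat1. These 4 make up 11.8% of the members, beside 7.90% of all 13498 genes (5.10% higher and 2.80% lower), so the share lies near the background. Over all genes 688 were higher and 378 lower, and with scaling by total counts 309 were higher and 364 lower. Non-overlapping genotypes were seen for 6 members (17.6%), 3 above and 3 below, and for 19.9% of all genes (10.7% above and 9.21% below). The median log2 fold change, deleted over intact, was 0.05 for the members and 0.05 for all genes. An unadjusted p under 0.05 was seen for 5 members on the higher and 7 on the lower side, the called ones included, together 35.3% of the members beside 26.2% of all genes. Leaving out 1 library gave between 1 and 7 called members: 7 without deleted replicate 2, 3 without deleted replicate 3 or 4, 2 without intact replicate 1, 3 or 4, and 1 without intact replicate 2.

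**Figure D1:**
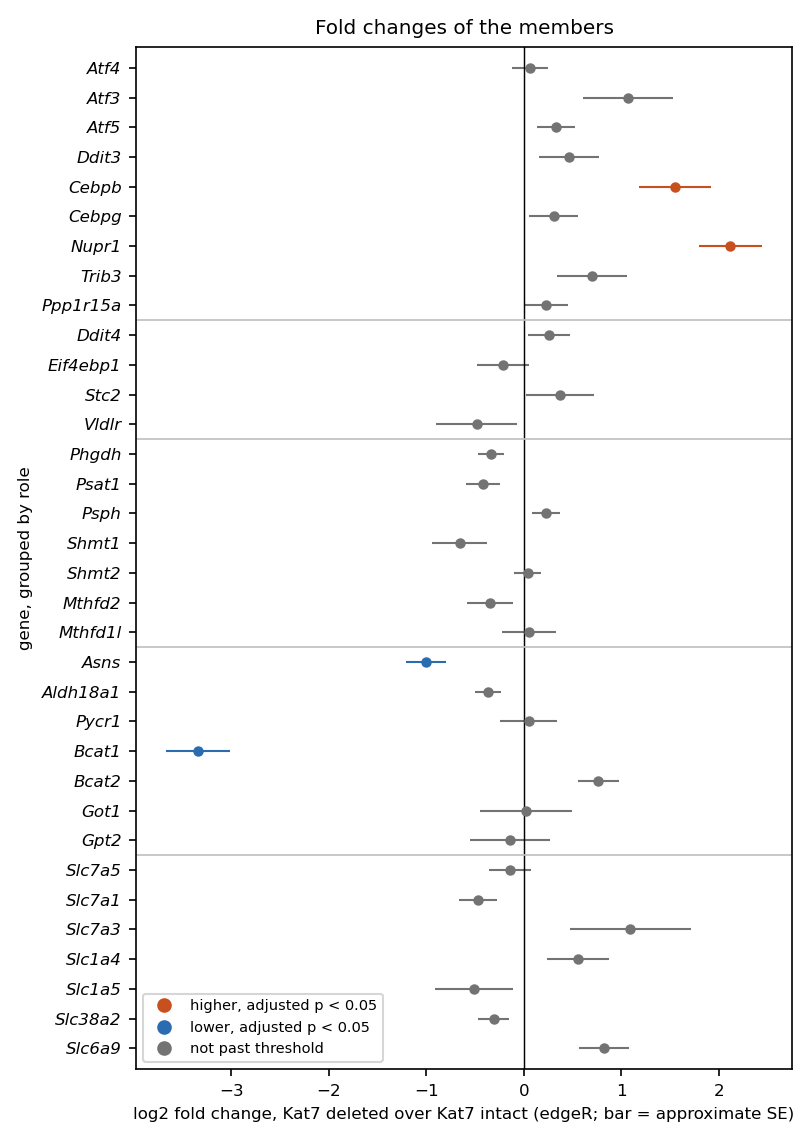
Log2 fold change of each member, Kat7 deleted over Kat7 intact, with its approximate standard error, grouped by role (n = 4 cultures per genotype). Nupr1 (2.12) and Cebpb (1.55) lie past the threshold on the higher side, Asns (-1.001) and Bcat1 (-3.34) on the lower side, and the other 30 genes did not pass it.

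Atf4 mRNA stood near the same mean level in both genotypes, with a wider spread after deletion. Deleted replicates 1 to 4 held 80.6, 143, 90.3 and 115 CPM, and intact replicates 1 to 4 held 104, 104, 90.9 and 111 CPM. Deleted values lay on both sides of the intact range. The log2 fold change was 0.07 ± 0.18 (adjusted p = 0.849), and its sign turned with scaling by total counts (-0.06), with sample weights (-0.04) and without deleted replicate 2 (-0.10). Since ATF4 is controlled mainly at translation, the mRNA level alone does not show the amount of protein, which was not measured.

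Among the other stress regulators, Nupr1 and Cebpb rose. Nupr1 encodes a small chromatin-associated stress protein that partners with C/EBP factors (Entrez 56312, chr7:126623246-126625470 on GRCm38.p6). It held 6.09, 3.49, 4.17 and 4.17 CPM in deleted replicates 1 to 4, against 1.14, 0.957, 1.37 and 0.654 CPM in intact replicates 1 to 4. Every deleted culture lay above every intact one. The difference was 4.34-fold, a log2 fold change of 2.12 ± 0.33 (adjusted p = 0.0101). Levels were low, with 38 to 96 reads in deleted and 15 to 28 reads in intact libraries. The call was lost without intact replicate 2 (adjusted p = 0.0501) and with littermates summed (0.0631). The match to the response element in its upstream sequence is printed above.

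Cebpb encodes C/EBPβ, a bZIP protein that dimerizes with ATF4 (Entrez 12608, chr2:167688915-167690432). It held 7.23, 10.8, 4.83 and 14.52 CPM in deleted replicates 1 to 4 and 3.49, 4.25, 2.49 and 2.53 CPM in intact replicates 1 to 4. The lowest deleted culture was only a little above the highest intact one. The log2 fold change was 1.55 ± 0.37, or 2.93-fold (adjusted p = 0.0403). The call was lost without deleted replicate 4 (1.26, adjusted p = 0.0750), without any 1 intact library (adjusted p from 0.0911 without intact replicate 2 to 0.124 without intact replicate 4), and without the pair of deleted libraries high in mitochondrial transcripts (adjusted p = 0.0830). The call was also lost with litter as a random block (adjusted p = 0.151), with littermates summed (0.0662), with scaling by total counts (0.0531) and with sample weights, where the value was 0.995 (0.0652).

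The remaining 7 regulators, Atf4 included, did not pass the threshold. All 9 had a fitted fold change above 0, though 8 did with scaling by total counts, and 7 with sample weights, without deleted replicate 2, or without deleted replicates 1 and 4. Over all genes 55.0% lay above 0 in the main fit. Atf3, an early stress-induced repressor and activator, held 7.42, 13.1, 3.73 and 8.26 CPM in deleted cultures against 7.06, 2.21, 3.18 and 3.05 CPM in intact ones (log2 fold change 1.07 ± 0.46, adjusted p = 0.182). Intact replicate 1 overlapped the deleted cultures, and without it the value was 1.52 (adjusted p = 0.113). Trib3, a pseudokinase that restrains ATF4 and AKT, held 6.15, 6.70, 4.01 and 12.3 CPM in deleted cultures and 3.47 to 6.16 CPM in intact ones (0.70 ± 0.36, adjusted p = 0.255).

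Ddit3 encodes CHOP, the factor that links prolonged stress to cell death. It was high in the deleted cultures with the large mitochondrial share, at 15.03 and 14.6 CPM in replicates 1 and 4, and within or just below the intact range in replicates 2 and 3, at 6.06 and 7.91 CPM. Intact cultures held 6.46 to 9.21 CPM. The log2 fold change of 0.46 ± 0.31 (adjusted p = 0.373) became -0.20 without deleted replicates 1 and 4. The part of the mitochondrial share in this pattern was not tested. Ddit3 overlaps Mars1 in the annotation, a gene with far more reads, and the strand setting of the counting is not given in the sources used here.

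Atf5, an ATF4 relative, stood at 25.5 ± 7.29 CPM in deleted and 20.3 ± 1.13 CPM in intact cultures (SD, n = 4 each, adjusted p = 0.306) and overlaps Nup62. Cebpg, a dimerization partner of ATF4, stood at 71.6 ± 28.5 CPM in deleted and 57.8 ± 9.88 CPM in intact cultures (adjusted p = 0.478), with 114 CPM in deleted replicate 2 alone above the intact range of 49.5 to 69.2 CPM. Ppp1r15a, which encodes the GADD34 subunit that dephosphorylates eIF2, stood at 19.4 ± 5.20 CPM in deleted and 16.5 ± 2.80 CPM in intact cultures (adjusted p = 0.537). The regulators as a group lay 0.76, 0.84, 0.23 and 0.94 log2 units above the intact mean in deleted replicates 1 to 4, against -0.11 to 0.16 in intact cultures. This average includes both called genes. The median log2 fold change of the 9 regulators was 0.46, beside 0.05 over all genes.

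**Figure D2:**
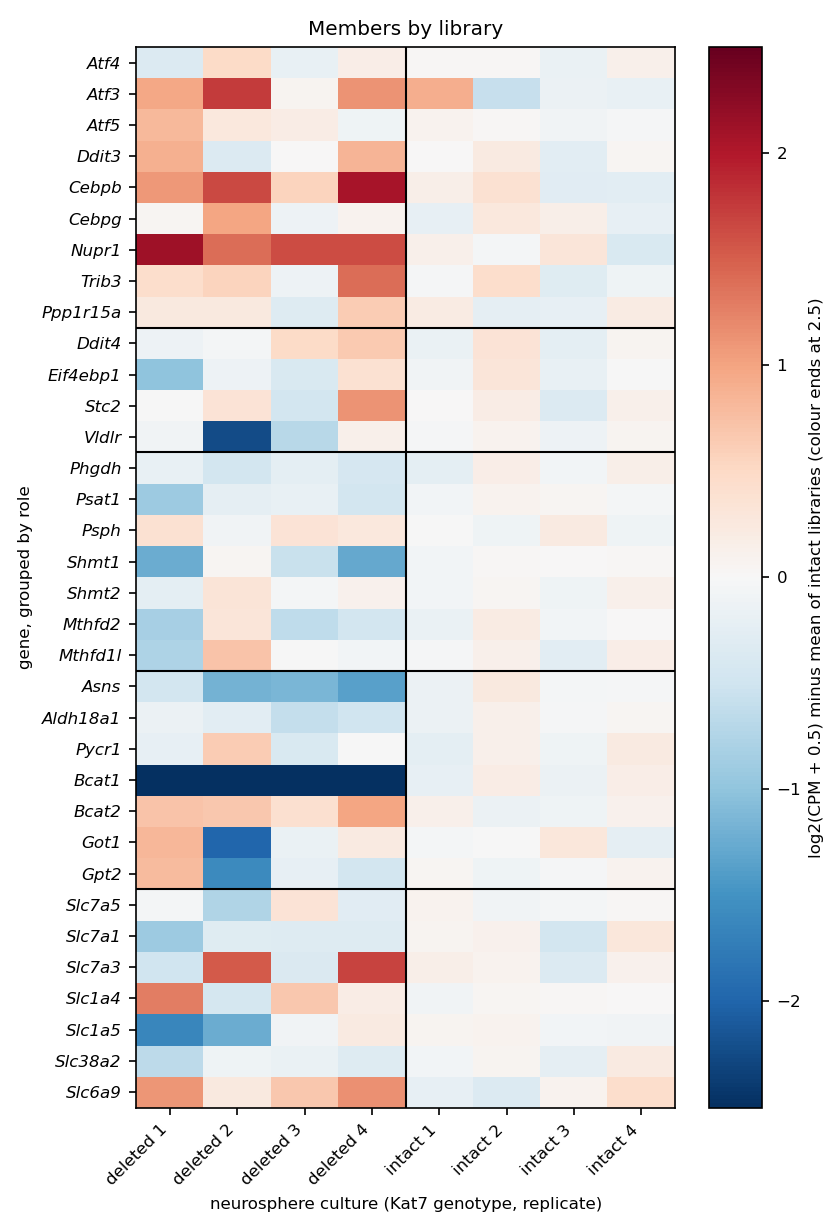
Level of each member in each culture as log2(CPM + 0.5) minus the mean of the intact cultures, on a colour scale that ends at 2.5 log2 units in each direction, with lines between roles and between genotypes. Nupr1 is high and Asns and Bcat1 are low in all 4 deleted cultures, while Vldlr, Got1 and Gpt2 are low in deleted replicate 2 and Slc7a3 is high in deleted replicates 2 and 4.

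Of the 4 growth-related and secreted stress targets 0 were called, 0 by DESeq2, and 0 had an unadjusted p under 0.05. Their median log2 fold change was 0.02. Ddit4, also called REDD1, inhibits mTORC1. It stood at 48.7 ± 13.1 CPM in deleted and 40.8 ± 7.82 CPM in intact cultures (SD, n = 4 each, log2 fold change 0.25 ± 0.21, adjusted p = 0.485). Eif4ebp1, which encodes a repressor of cap-dependent translation that mTORC1 switches off, held 21.2, 39.3, 33.2 and 56.5 CPM in deleted replicates 1 to 4 and 37.7 to 53.1 CPM in intact cultures (adjusted p = 0.652). Stc2, a secreted glycoprotein, held 4.78 to 15.2 CPM in deleted and 5.23 to 7.77 CPM in intact cultures (adjusted p = 0.527). Its highest value was in deleted replicate 4.

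Vldlr, a lipoprotein receptor that also transmits the reelin signal in brain, held 108, 24.1, 71.3 and 126 CPM in deleted replicates 1 to 4. Intact cultures held 113, 123, 105 and 120 CPM. Deleted replicate 2 was far below all others and deleted replicate 4 above all intact ones, so the log2 fold change of -0.48 ± 0.41 was not called (adjusted p = 0.493).

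None of the 7 serine and folate enzymes passed the threshold in edgeR, and 0 did by DESeq2, while 3 were lower at an unadjusted p under 0.05. Over all genes 26.2% had such a p in either direction. Their median log2 fold change was -0.33. The serine pathway starts from a glycolytic intermediate with Phgdh, continues with Psat1 and ends with Psph. Psat1 held 219, 351, 362 and 297 CPM in deleted replicates 1 to 4, against 389, 437, 422 and 395 CPM in intact replicates 1 to 4. All deleted cultures lay below all intact ones, yet the log2 fold change of -0.42 ± 0.17 gave an adjusted p of 0.165. Phgdh held 64.0, 53.4, 61.6 and 54.8 CPM in deleted and 61.3, 82.5, 70.2 and 80.8 CPM in intact cultures (-0.33 ± 0.13, adjusted p = 0.145). Here intact replicate 1 fell among the deleted values. Psph stood on the other side of 0, at 52.8 ± 7.28 CPM in deleted and 45.1 ± 5.29 CPM in intact cultures (0.23 ± 0.14, adjusted p = 0.334), and shares its locus in part with Cct6a, which has more reads.

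Serine hydroxymethyltransferases pass a carbon unit from serine to folate, Shmt1 in the cytosol and Shmt2 in mitochondria. Shmt1 held 34.2, 84.9, 55.6 and 33.2 CPM in deleted replicates 1 to 4 and 78.5 to 83.4 CPM in intact cultures. It was low in deleted replicates 1, 3 and 4, and deleted replicate 2 lay just above the intact range. The log2 fold change was -0.66 ± 0.28 (adjusted p = 0.183), and without deleted replicate 2 it was -0.997 (adjusted p = 0.0163). That library was the only deleted culture not below the intact range. Without it 2182 of all genes were called, beside 1066 with every library. Shmt2 stood at 104 ± 17.3 CPM in deleted and 101 ± 7.52 CPM in intact cultures (SD, n = 4 each, adjusted p = 0.876).

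Mthfd2 and Mthfd1l encode the mitochondrial enzymes that turn this carbon unit into formate for the cytosol. Mthfd2 held 47.6, 105, 54.9 and 61.9 CPM in deleted replicates 1 to 4 and 76.1 to 98.7 CPM in intact cultures (-0.35 ± 0.24, adjusted p = 0.389). It showed the same arrangement as Shmt1, with deleted replicate 2 highest, and without that library the value was -0.64 (adjusted p = 0.0222). Here too the library left out was the only deleted culture against the fall, in the setting with 2182 genes called. Mthfd1l held 60.0, 168, 102 and 97.3 CPM in deleted and 85.2 to 114 CPM in intact cultures (adjusted p = 0.920).

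Asns and Bcat1 fell among the 7 enzymes of asparagine, proline and transamination, whose median log2 fold change was -0.14. Asns, asparagine synthetase, makes asparagine from aspartate and glutamine and is a standard ATF4 target (Entrez 27053, chr6:7675165-7693209). It held 106, 63.6, 66.2 and 56.9 CPM in deleted replicates 1 to 4, against 131, 172, 140 and 142 CPM in intact replicates 1 to 4. All 4 deleted cultures lay below the lowest intact one, with deleted replicate 1 nearest. Asns was 2.00-fold lower (log2 fold change -1.001 ± 0.205, adjusted p = 0.0261). The call was lost without deleted replicate 3 (adjusted p = 0.0580) and without any 1 intact library (0.0660 without intact replicate 1 to 0.0912 without intact replicate 2), with litter as a random block (0.0528) and with littermates summed (0.111), while the value stayed between -1.28 and -0.90 over the 20 alternatives. The upstream sequence with its match at 23 bases before the start is printed above, as is that of Nupr1, which rose.

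Bcat1, the cytosolic branched-chain aminotransferase (Entrez 12035, chr6:144993835-145076157), held 4.69, 2.66, 5.88 and 2.00 CPM in deleted replicates 1 to 4 and 33.5, 44.5, 34.9 and 43.6 CPM in intact replicates 1 to 4. This was 10.1-fold lower (-3.34 ± 0.33, adjusted p = 0.00375), the member with the largest fold change, and it was called in all 21 settings. Its fall was known from earlier work on these data. Bcat2, the mitochondrial enzyme for the same reaction, held 7.04, 6.89, 5.601 and 8.70 CPM in deleted and 4.56, 3.71, 3.81 and 4.49 CPM in intact cultures. All deleted cultures lay above all intact ones, and the log2 fold change of 0.77 ± 0.21 missed the threshold (adjusted p = 0.0606; 0.0126 by DESeq2).

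Aldh18a1, which commits glutamate to proline synthesis, stood at 93.9 ± 13.2 CPM in deleted and 121 ± 10.3 CPM in intact cultures (SD, n = 4 each, -0.37 ± 0.13, adjusted p = 0.119; 0.0450 by DESeq2). Pycr1, the mitochondrial reductase that completes it, stood at 4.82 ± 1.801 CPM in deleted and 4.63 ± 0.772 CPM in intact cultures (adjusted p = 0.929). These are the entry and exit steps of the pathway, and neither passed the edgeR threshold.

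Got1 and Gpt2, aminotransferases that move nitrogen between glutamate and aspartate or alanine, were among the most variable members across deleted cultures. Got1 held 133, 18.4, 65.9 and 87.4 CPM in deleted replicates 1 to 4 and 63.4 to 90.6 CPM in intact cultures (0.03 ± 0.47, adjusted p = 0.979). Gpt2 held 345, 66.1, 173 and 145 CPM in deleted replicates 1 to 4 and 185 to 212 CPM in intact cultures (-0.14 ± 0.41, adjusted p = 0.860). For both, deleted replicate 1 was above and deleted replicate 2 below every intact culture, and the sign of Gpt2 turned without deleted replicate 2 (0.14). Got1 had no settled sign, with values from -0.84 to 0.35 over the alternatives and -0.39 without deleted replicate 1.

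**Figure D3:**
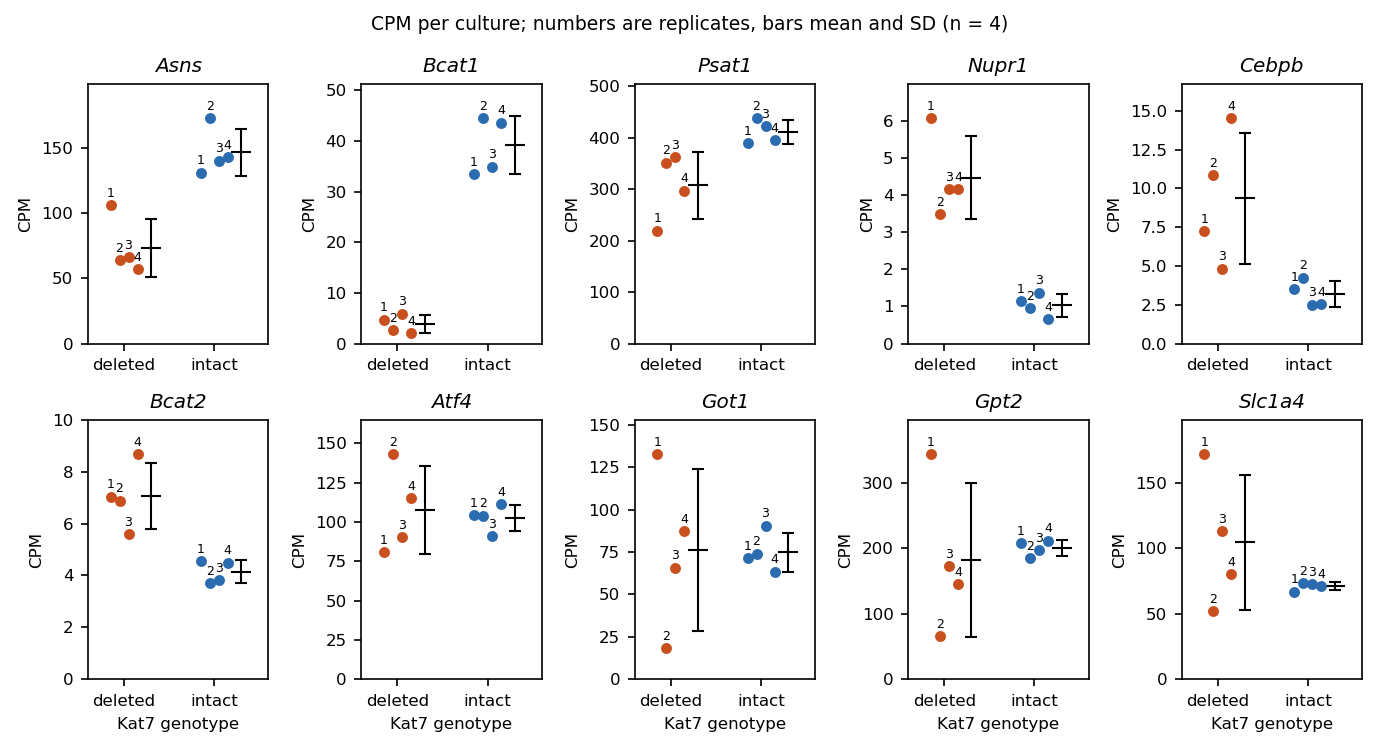
CPM of 10 members in each culture, Kat7 deleted left of Kat7 intact, with replicate numbers and the mean and SD of 4 cultures beside the points. Asns, Bcat1 and Psat1 lie below and Nupr1, Cebpb and Bcat2 above the intact cultures without overlap, while Atf4, Got1, Gpt2 and Slc1a4 overlap.

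Transporters were not called either, with 0 of 7 past the edgeR threshold, 1 by DESeq2 and 2 under an unadjusted p of 0.05 (28.6%, beside 26.2% of all genes). Their median log2 fold change was -0.14. Slc7a5, the light chain of the LAT1 exchanger for large neutral amino acids, held 259, 159, 341 and 220 CPM in deleted replicates 1 to 4 and 255 to 287 CPM in intact cultures (-0.14 ± 0.21, adjusted p = 0.724). Slc7a1 and Slc7a3 both encode carriers of cationic amino acids. Slc7a1 held 54.3, 82.3, 81.6 and 80.6 CPM in deleted and 107, 109, 74.1 and 123 CPM in intact cultures (-0.47 ± 0.19, adjusted p = 0.167). Slc7a3 was scarce, at 0.951, 5.42, 1.10 and 6.09 CPM in deleted and 1.12 to 1.78 CPM in intact cultures (1.09 ± 0.62, adjusted p = 0.299). It was high in deleted replicates 2 and 4, the cultures with almost no Kat7 reads, and without the other pair the log2 fold change was 1.87 (adjusted p = 0.00700). That setting kept only the deleted cultures where Slc7a3 was high. It called 2299 of all genes, beside 1066 with every library. Slc7a3 overlaps Snx12, which has more reads.

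Slc1a4 and Slc1a5 encode the neutral amino acid exchangers ASCT1 and ASCT2. Slc1a4 held 172, 52.0, 113 and 80.4 CPM in deleted replicates 1 to 4 and 66.9 to 73.4 CPM in intact cultures (0.56 ± 0.31, adjusted p = 0.294). Slc1a5 held 4.76, 6.43, 14.9 and 18.6 CPM in deleted replicates 1 to 4 and 14.9 to 17.0 CPM in intact cultures (-0.51 ± 0.40, adjusted p = 0.447). Deleted replicate 1 was the highest culture for Slc1a4 and the lowest for Slc1a5.

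Slc38a2, the SNAT2 carrier of small neutral amino acids, stood at 194 ± 31.6 CPM in deleted and 240.2 ± 31.7 CPM in intact cultures (SD, n = 4 each, adjusted p = 0.258). Slc6a9, the glycine transporter GLYT1, held 25.7, 13.9, 18.8 and 26.3 CPM in deleted and 10.1, 9.09, 12.5 and 16.1 CPM in intact cultures. The log2 fold change of 0.82 ± 0.26 missed the threshold (adjusted p = 0.0842; 0.0318 by DESeq2), with deleted replicate 2 below intact replicate 4. Slc6a9 overlaps Ccdc24, with a mean of 56.6 counts per library beside 265 for Slc6a9.

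On a scale per length (RPKM, CPM per kilobase of merged exons), Psat1 was the most abundant member, at a mean of 123 RPKM in deleted and 165 RPKM in intact cultures. Slc7a5 stood at 69.6 RPKM in deleted and 76.6 RPKM in intact cultures, and Atf4 at 62.3 RPKM in deleted and 59.4 RPKM in intact cultures. Asns stood at 38.0 RPKM in deleted and 76.0 RPKM in intact cultures, a level beside Slc7a5 in the intact cultures. Bcat1 had 0.470 RPKM in deleted and 4.83 RPKM in intact cultures, while Bcat2 had 3.20 RPKM in deleted and 1.88 RPKM in intact cultures.

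The balance within enzyme and carrier pairs was compared as the log2 ratio of counts in each library, which does not depend on library scaling. Bcat1 over Bcat2 was -0.58, -1.36, 0.07 and -2.10 in deleted replicates 1 to 4, against 2.87, 3.57, 3.19 and 3.27 in intact replicates 1 to 4, a difference of -4.22. Shmt1 over Shmt2 was -1.31, -0.57, -0.80 and -1.70 in deleted and -0.30, -0.32, -0.17 and -0.41 in intact cultures, a difference of -0.80. Both ratios were lower in all 4 deleted cultures. Each had an exact two-sided permutation p of 0.0286, the smallest possible with 70 arrangements, and a Benjamini-Hochberg adjusted p of 0.0571 over the 4 pairs, which missed 0.05. With only these ratios at the smallest p, no lower adjusted p was possible. The fall of Bcat1 was known before its ratio was tested.

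The ratio of Slc7a1 to Slc7a3 differed by -1.11 (exact permutation p = 0.200, adjusted p = 0.200) and that of Slc1a4 to Slc1a5 by 1.14 (exact permutation p = 0.0857, adjusted p = 0.114), deleted minus intact. In log2 units Slc1a4 over Slc1a5 was 5.17 in deleted replicate 1, against 2.01 to 2.27 in intact cultures, and deleted replicate 4 lay within the intact range at 2.11.

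**Figure D4:**
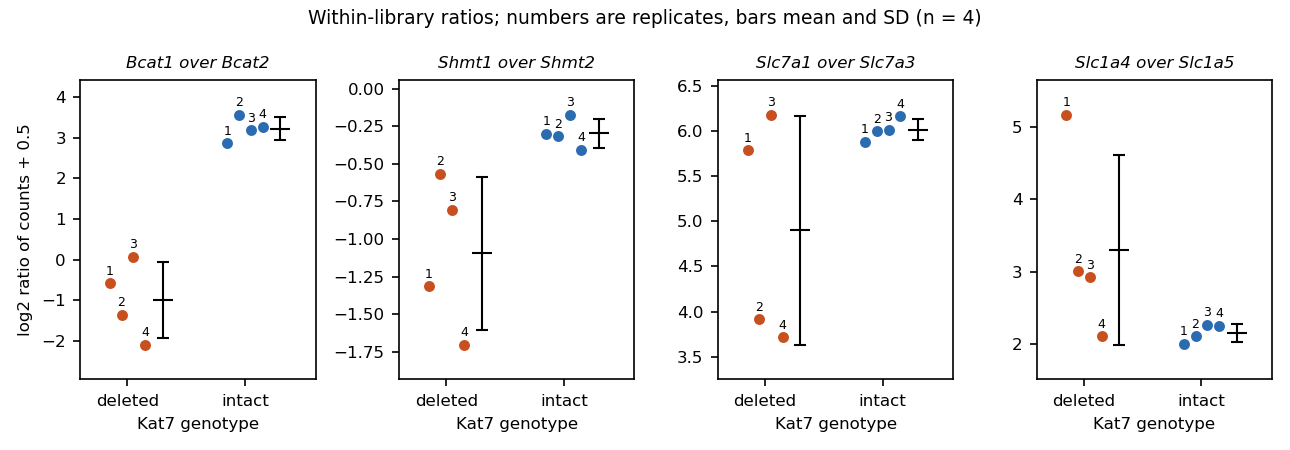
Log2 ratio of counts + 0.5 between paired genes in each culture, Kat7 deleted left of Kat7 intact, with replicate numbers and the mean and SD of 4 cultures. Bcat1 over Bcat2 and Shmt1 over Shmt2 are lower in all 4 deleted cultures, and the other ratios overlap; the vertical axes differ between panels.

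The spread among deleted cultures was wide for these genes, as it was for the transcriptome. The SD of log2 CPM was larger in the deleted genotype for 31 of 34 members (91.2%), beside 86.6% of all genes. The median SD of the members was 0.49 in deleted and 0.20 in intact cultures, beside 0.38 in deleted and 0.17 in intact cultures over all genes. Deleted replicates 1 to 4 placed 25, 28, 24 and 28 members outside the range of the intact cultures, or 73.5%, 82.4%, 70.6% and 82.4%, beside 75.2%, 72.4%, 66.3% and 74.9% of all genes.

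Markers of other cell types moved between the same cultures. For scale, 5.10% of all genes tested were called higher and 2.80% lower. The summed level of 10 astrocyte markers was 8314, 869, 2749.5 and 2279.9 CPM in deleted replicates 1 to 4, against 919 to 1849 CPM in intact cultures, and 4 of 10 were called higher. Gpt2, Slc1a4, Phgdh and Psph followed the order of the astrocyte sums in deleted cultures (replicate 1, then 3, 4 and 2). Got1 did not in replicates 3 and 4. For Phgdh and Psph the deleted values spanned only 53.4 to 64.0 and 42.2 to 58.3 CPM, so their order rests on small differences. The summed level of 9 mesenchymal and mural markers was 5.71, 783, 22.6 and 242 CPM in deleted replicates 1 to 4, against 3.03 to 4.37 CPM in intact cultures, with 2 of 3 tested called higher. Deleted replicates 2 and 4 were the highest deleted cultures for these markers. Among members the same held for Cebpb, Slc7a3, Atf3, Atf4, Cebpg, Trib3, Ppp1r15a, Eif4ebp1, Stc2, Shmt2, Mthfd2 and Pycr1. Deleted replicates 2 and 4 also held the least Kat7, at 0.367 and 0.0870 CPM, against 26.4 and 13.9 CPM in deleted replicates 1 and 3. The share of all genes with either order was not counted. The part of either marker list or of the remaining Kat7 in these results was not tested. In bulk RNA fewer cells of a type and less RNA per cell cannot be told apart.

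Neuronal markers summed to 927 to 1269.9 CPM in deleted and 1127 to 1186 CPM in intact cultures. Of 8 tested, 2 were called lower, beside 2.80% of all genes, while 2 had a fitted fold change above 0. Map2 alone held 778 to 1106 CPM in deleted and 1010 to 1056 CPM in intact cultures. Dcx held 101 CPM in deleted replicate 2 and 0.127, 0.329 and 0.174 CPM in deleted replicates 1, 3 and 4. Intact cultures held 0.641 to 1.26 CPM of Dcx, which was not called. Oligodendrocyte lineage markers summed to 449.6 to 1696 CPM in deleted and 1367 to 1728 CPM in intact cultures, with 2 of 7 tested called lower. Endothelial markers summed to 2.98 to 21.7 CPM in deleted and 4.41 to 9.45 CPM in intact cultures, with 1 of 3 tested called lower. Microglial markers summed to 0.609 to 2.41 CPM in deleted and 2.84 to 3.71 CPM in intact cultures. Of these 0 of 1 tested was called by edgeR, 0 by DESeq2 and 0 under an unadjusted p of 0.05. P2ry12, the gene tested, made up most of the intact sums, at 2.49 to 3.41 CPM. It held 0 to 2.09 CPM in deleted cultures. Csf1r went the other way on few reads, at a mean of 0.195 CPM in deleted and 0.0559 CPM in intact cultures.

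Around the 34 members, 121 other genes of the pathway were examined in 7 lists, of which 114 were tested. Of these 8 rose and 3 fell, together 9.65%, against the background of 7.90%. The median log2 fold change was 0.04. With littermates summed Slc7a11 alone stayed called. Among 16 tested further ATF4 targets 3 were higher and 0 lower (0 lower by DESeq2, 1 lower under an unadjusted p of 0.05), with a median of 0.49. Slc7a11, the cystine carrier of system xc-, held 328, 455, 243 and 481 CPM in deleted and 40.6 to 53.9 CPM in intact cultures (2.95 ± 0.24, adjusted p = 0.00211), a rise already known from earlier work on these data. Aldh1l2, a mitochondrial folate enzyme that yields NADPH, held 98.7, 62.2, 66.8 and 82.9 CPM in deleted and 32.6 to 39.8 CPM in intact cultures (1.09 ± 0.16, adjusted p = 0.00959), a call that was lost with littermates summed (1.11, adjusted p = 0.0592). Ero1a, an oxidase of the endoplasmic reticulum, held 67.8 to 119.7 CPM in deleted and 41.9 to 53.9 CPM in intact cultures (0.83 ± 0.20, adjusted p = 0.0410). The call of Ero1a was lost without deleted replicate 4 or any 1 intact library (adjusted p up to 0.132).

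Of the other folate and glycine genes 1 of 15 was higher, Aldh1l2 again, and 1 lower. Mthfd2l, a relative of Mthfd2, held 17.6, 14.1, 14.9 and 13.4 CPM in deleted and 22.9 to 25.2 CPM in intact cultures (-0.70 ± 0.13, adjusted p = 0.0169). The call was lost without any 1 intact library, with an adjusted p of 0.0756 without intact replicate 2.

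Among 18 tested other amino acid enzymes 3 were higher and 1 lower. Bckdha, a subunit of the branched-chain keto acid dehydrogenase that acts after the aminotransferases, held 47.7, 39.9, 28.3 and 35.6 CPM in deleted and 17.3 to 22.01 CPM in intact cultures (0.95 ± 0.17, adjusted p = 0.0183). Ivd, isovaleryl-CoA dehydrogenase of leucine breakdown, held 73.9, 44.0, 38.9 and 41.8 CPM in deleted and 23.8 to 27.5 CPM in intact cultures (0.96 ± 0.21, adjusted p = 0.0312). In both, every deleted culture lay above every intact one. The other listed genes around branched-chain breakdown, named after their values were seen, were not called. Bckdhb, the partner subunit of Bckdha, had a log2 fold change of -0.43 ± 0.26 (adjusted p = 0.328) and was called lower in 4 of 21 settings. Dbt, Bckdk, Mccc1 and Mccc2 had log2 fold changes of 0.05, 0.06, 0.18 and 0.44.

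Asl, argininosuccinate lyase, rose by 1.05 ± 0.24 on the log2 scale (adjusted p = 0.0352). Bckdha and Ivd lost their calls without any 1 intact library (adjusted p up to 0.0771 and 0.108). Asl lost its call without deleted replicate 3 or 4 or intact replicate 1, 3 or 4 (up to 0.111).

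The stress kinases and translation factors upstream of ATF4 had 1 of 15 higher and 0 lower, while DESeq2 called 3 lower and 3 were lower under an unadjusted p of 0.05. Eif2b2, a subunit of the exchange factor eIF2B, held 38.7, 84.9, 51.6 and 44.5 CPM in deleted and 25.7 to 28.8 CPM in intact cultures (1.00 ± 0.23, adjusted p = 0.0373). Of 20 cytosolic aminoacyl-tRNA synthetases 1 was higher and 0 lower. DESeq2 called 1 higher and 1 lower, and 1 was higher and 2 lower under an unadjusted p of 0.05. Qars, the glutaminyl enzyme, held 67.0 to 98.2 CPM in deleted and 47.5 to 52.7 CPM in intact cultures (0.61 ± 0.14, adjusted p = 0.0345). The median of the synthetases was -0.13. Both calls were lost without deleted replicate 3 or any 1 intact library (adjusted p up to 0.111 for Eif2b2 and 0.115 for Qars).

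Among 18 tested further transporters Slc7a11 was higher and Slc1a1 lower. Slc1a1, the glutamate and cysteine carrier EAAC1, held 2.09, 1.29, 1.48 and 0.435 CPM in deleted and 6.91, 3.47, 4.60 and 8.37 CPM in intact cultures (-2.12 ± 0.47, adjusted p = 0.0327), a call that was lost without deleted replicate 3 or any 1 intact library (up to 0.100 without intact replicate 4). The XBP1 and ATF6 arm of the unfolded protein response had 0 of 16 called, 2 by DESeq2 and 4 under an unadjusted p of 0.05 (25.0%, beside 26.2% of all genes), with a median of 0.10. Its most abundant member, the chaperone gene Canx, stood at 1186 ± 134 CPM in deleted and 1150.1 ± 126 CPM in intact cultures (SD, n = 4 each, adjusted p = 0.883).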

How the data were processed

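Raw read counts by Entrez gene were deposited by the authors for 8 polyadenylated RNA libraries, read as 100 bp single-end reads per the labels' protocols. The same file holds gene lengths. CASAVA 1.8.2, featureCounts and mm10 were used per the submitters' processing notes; aligner and strand setting are not given in the sources used here. Per-library files held the same counts as the joint table. Symbols were matched by Entrez identifier to RefSeq (25275 matched, 1904 did not).

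Counts were tested with edgeR 4.0.16 (R 4.3.3): filterByExpr at a minimum count of 10, TMM, robust dispersions, quasi-likelihood F test between genotypes without covariates, Benjamini-Hochberg over 13498 genes, called under 0.05. CPM errors are SDs. Errors of log2 fold changes are approximate standard errors that restate the test. Fitted fold changes use a prior count of 0.125. DESeq2 1.42.0, limma 3.58.1 and other alternatives are described below. On simulated counts for 13321 genes the procedure recovered 32.0% of 2-fold and 79.4% of 4-fold changes and called 9 unchanged genes. The simulated libraries were independent and had the same dispersion in both genotypes. The real libraries include littermates and spread more widely in deleted cultures, so these rates need not hold for them. Members and lists were chosen with earlier results of these data known. All 34 members are named; of other lists, up to 4 called genes by p or else the most abundant, except 1 called gene that is not reported here. Replicate numbers were not used to pair cultures in the main fit. Counting intervals are not given, since reads carry no molecular identifiers; 1 read was worth 0.0436 to 0.0918 CPM.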

Additional observations from a re-analysis of the deposited data

Results flagged for a closer look

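Of 68 gene and genotype groups of 4 cultures, 3 held a culture set far apart from the other 3, as the gap to the nearest one over the whole range of log2 CPM; chance flags about 1 in 20 such groups. Slc7a1 in deleted cultures had a ratio of 0.949, with 54.3 CPM in deleted replicate 1 and 80.6 to 82.3 CPM in the others. Slc7a3 in intact cultures had a ratio of 0.863, with 1.12 CPM in intact replicate 3 and 1.67 to 1.78 CPM in the others. Shmt1 in intact cultures had a ratio of 0.849, with 78.5 CPM in intact replicate 1 and 82.7 to 83.4 CPM in the others, a narrow range.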

How the results depend on the processing

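Over 20 alternatives the member count of 4 became 7 with DESeq2, 1 with littermates summed, 2 with litter as a random block and 2 when the replicate number was a block; with 1 library left out it ran from 1 to 7. Among members only Bcat1 was called in all 21 settings. The count over other pathway genes, 11, became 6 with total counts only, 22 with DESeq2, 23 with sample weights, 4 with litter as a random block, 1 with littermates summed, 3 with the replicate block and 21 without deleted replicates 1 and 3, and ran from 2 to 26 with 1 library left out. All genes called, 1066, became 673 with total counts only, 2200 with DESeq2, 2283 with sample weights, 414 with litter as a random block, 193 with littermates summed, 319 with the replicate block and 2299 without deleted replicates 1 and 3, and ran from 189 to 2182 with 1 library left out. Scaling by total counts moved the median of all genes from 0.05 to -0.09 and gave 309 genes higher and 364 lower in deleted cultures, beside 688 higher and 378 lower with TMM. The cause of these differences was not tested.

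Kat7 passed the threshold with sample weights (-4.10, adjusted p = 0.0347) and without deleted replicates 1 and 3 (-8.51, adjusted p = 0.000113), a pair chosen for its Kat7 reads. The ratios kept their direction with an offset of 2 and with 1 library left out, where no adjusted p could fall under 0.05; Bcat1 over Bcat2 ran from -4.57 to -3.85, Shmt1 over Shmt2 from -0.97 to -0.60, Slc7a1 over Slc7a3 from -1.54 to -0.72 and Slc1a4 over Slc1a5 from 0.52 to 1.54. Deviations of same-numbered cultures of different genotype correlated at 0.0961 to 0.331 across genes, above 0 for every number. Those of different number correlated at -0.27 to 0.251, mostly below 0. Intact replicates 1 and 3 each correlated more with a deleted culture of another number, and the labels tie the numbers to no shared source, so the fit without the block was kept. Whether same-numbered cultures shared a source was not tested. The block ended the calls of Cebpb (adjusted p = 0.0774) and Asns (0.0658). At these depths genes such as Slc7a3, Nupr1 and Pycr1 rest on few reads.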
